A study of Mus musculus with 10 samples.

Results

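The 10 genes described here, *Aqp4*, *Kcnj10*, *Slc1a2*, *Slc1a3*, *Glul*, *Gja1*, *Gjb6*, *Aldh1l1*, *Aldoc* and *S100b*, encode channels, transporters, connexins, enzymes and a calcium-binding protein of resting astrocytes. They were chosen by symbol as genes of astrocyte homeostasis. All 10 were present among the 15900 genes of the expression table, and all 10 were among the 15851 genes tested.

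Cap analysis of gene expression (CAGE), which sequences the capped 5' ends of transcripts, was applied to the whole hippocampus of male ICR (CD-1) mice, with 2 mice in each of 5 groups. Status epilepticus (SE) was induced with pilocarpine (PILO) after methyl scopolamine in mice aged 9 to 10 weeks and was terminated with diazepam. Hippocampi were taken at 6 h or 2 days, either without further treatment (SE 6 h and SE 2 days) or after oral levetiracetam (LEV), an antiepileptic drug (SE + LEV 6 h and SE + LEV 2 days). LEV had been given 1 time before the 6 h samples and 5 times before the 2 days samples. The pre-SE mice are labelled untreated, and by the study's methods control mice received saline in place of PILO. There was no group that received LEV without SE. The PILO model acts on the whole brain, and the tissue was not sorted into cell types.

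Astrocytes take up the potassium and glutamate that neurons release, convert glutamate to glutamine, move water at their endfeet around blood vessels and share ions and metabolites through gap junctions. In the hippocampus these functions limit extracellular potassium and glutamate during intense firing. After seizures astrocytes also become reactive, a state marked by intermediate filament proteins such as GFAP. In RNA from a whole hippocampus, fewer astrocytes and less RNA per astrocyte cannot be told apart.

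Levels are given in CPM, the tag counts of a gene scaled to the total of its library. The libraries held 10540698 to 51710968 tags, and the 10 genes had from 248 tags (*Aldh1l1* in its lowest library) to 76751 tags (*Slc1a2* in its highest), so that counting error was small beside the difference between mice. The median absolute difference between both mice of a group ran from 0.31 to 0.38 on the log2 scale over all genes tested and from 0.23 to 0.56 over the 10 astrocyte genes. Differences between groups (logFC, given with the standard error of the fit, s.e.) are on the log2(CPM + 0.1) scale. They were tested with limma over all 15851 genes, and a gene was called at a Benjamini-Hochberg adjusted p of at most 0.05. With 2 mice a group the standard error rests mainly on the spread that the fit shares across all groups. Comparisons with pre-SE share the same pre-SE mice. Where mice of more than 2 groups are set apart below, the share of all genes set apart in that way was not counted.

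Of the 10 genes, *Aqp4* alone passed the limma test after SE, and it was higher at 2 days. *Slc1a2*, *Slc1a3*, *Glul*, *Gja1* and *Aldoc* had lower levels in both SE 2 days mice than in both pre-SE mice without passing the test, and *Kcnj10* and *Aldh1l1* had higher levels in both without passing it. Of all genes tested, 25.6% had both SE 2 days mice below both pre-SE mice and 26.3% had both above. At 6 h no gene of the 10 passed. LEV moved none of them past the test at either time.

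**Figure D1:**
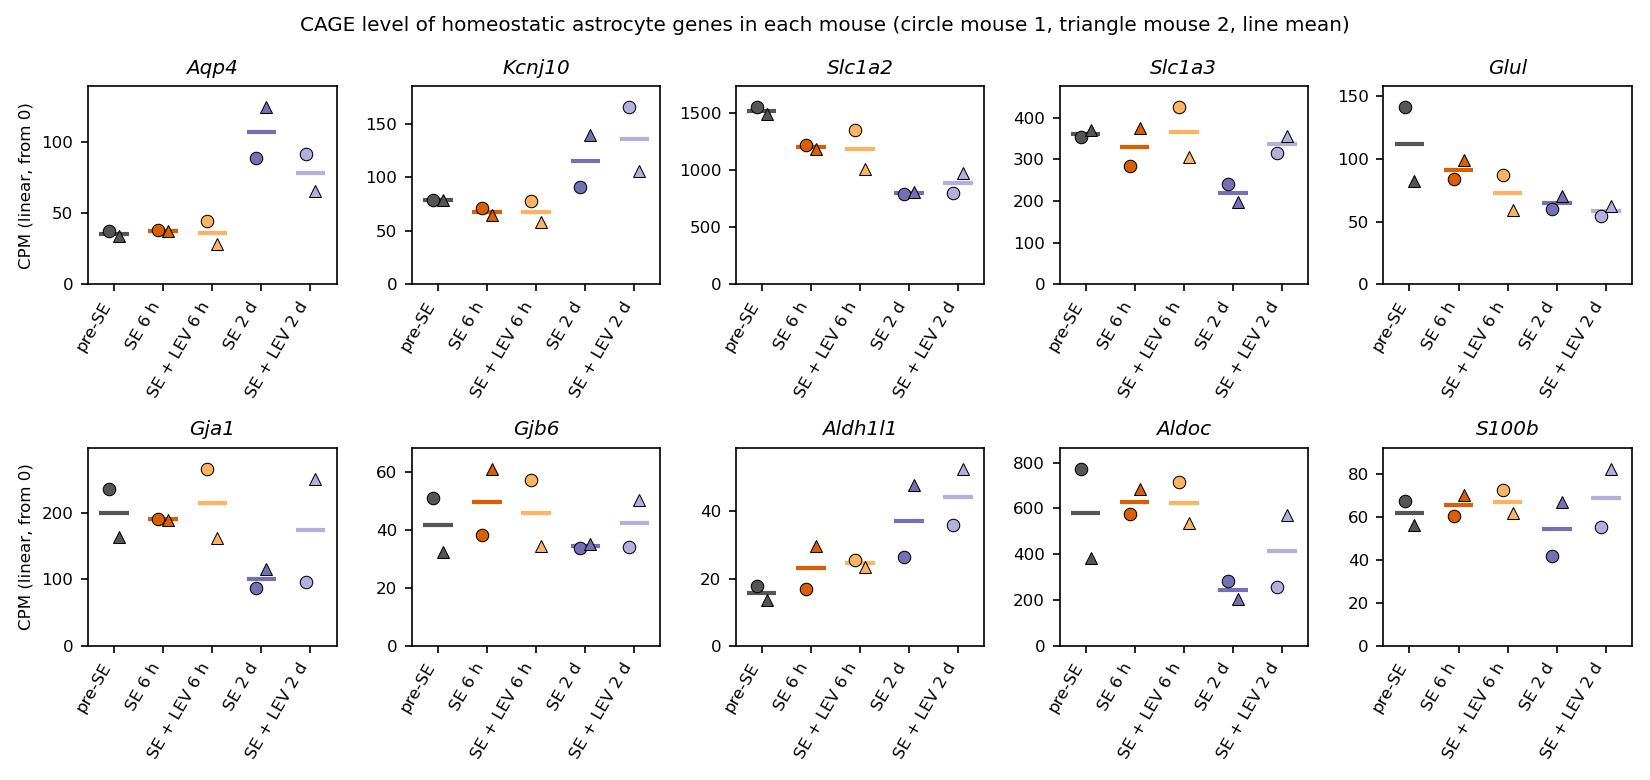
CPM of each of the 10 genes (vertical axes, linear and starting at 0) in the 5 groups, with mouse 1 as a circle, mouse 2 as a triangle and the group mean as a line. *Aqp4* lies between 89.1 and 124.6 CPM in the SE 2 days mice and between 33.6 and 37.4 CPM before SE, whereas *Slc1a2* lies at 786.2 and 808.7 CPM at 2 days beside 1484 and 1547 CPM before SE.

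*Aqp4* encodes aquaporin 4, the water channel of astrocyte endfeet (ENSMUSG00000024411, mm9 chr18:15547903-15562193, minus strand). Its level was 37.4 and 33.6 CPM before SE, 38.2 and 37.3 CPM at SE 6 h, 44.2 and 28.1 CPM at SE + LEV 6 h, 89.1 and 124.6 CPM at SE 2 days, and 91.3 and 65.8 CPM at SE + LEV 2 days. All 4 mice sampled at 2 days were above all 6 of the other mice. The mean rose from 35.5 ± 2.62 CPM (SD, n = 2) before SE to 106.8 ± 25.1 CPM (SD, n = 2) at SE 2 days, a 3.01-fold difference of means. The logFC was 1.57 with a standard error of 0.29 (limma, adjusted p = 0.0107). Against SE 6 h *Aqp4* was also higher at SE 2 days, with a logFC of 1.48 ± 0.29 (s.e.; limma, adjusted p = 0.0194). In the order of group means, pre-SE, SE + LEV 6 h (36.1 CPM) and SE 6 h (37.8 CPM) lay together, followed by SE + LEV 2 days (78.6 CPM) and SE 2 days (106.8 CPM). No pair within the first 3, nor the last pair, passed the test. Both calls of *Aqp4* held under all 12 alternatives of processing that kept every mouse. The adjusted p against pre-SE went to 0.0590 without pre-SE mouse 1, to 0.0687 without pre-SE mouse 2 and to 0.126 without SE 2 days mouse 2 (limma, logFC of 1.33 to 1.64). Against SE 6 h the call was lost without any 1 of the 4 mice compared, with a limma adjusted p of 0.0567 to 0.145.

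*Kcnj10* encodes Kir4.1, the inward rectifier through which astrocytes take up potassium (ENSMUSG00000044708, mm9 chr1:174271341-174304216, plus strand). It read 78.5 CPM in both mice before SE, 70.8 and 64.2 CPM at SE 6 h, 77.7 and 58.0 CPM at SE + LEV 6 h, 90.3 and 138.9 CPM at SE 2 days, and 165.2 and 105.3 CPM at SE + LEV 2 days. As for *Aqp4*, all 4 mice at 2 days lay above the other 6, although the mice of each 2 days group differed by 1.54-fold and 1.57-fold. How common this separation is among all genes was not counted. The logFC of SE 2 days against pre-SE was 0.51 ± 0.29 (s.e.; limma, adjusted p = 0.372) and was not called under any alternative. Within a library the ratio of *Aqp4* to *Kcnj10* was 0.476 and 0.429 before SE, 0.986 and 0.897 at SE 2 days, and 0.553 and 0.625 at SE + LEV 2 days. Its highest values were thus those of the SE 2 days mice.

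*Slc1a2* encodes GLT-1, the glutamate transporter that carries most glutamate uptake in the forebrain (ENSMUSG00000005089, mm9 chr2:102498816-102630941, plus strand). The 300 bases around the RefSeq start of *Slc1a2* (GRCm38.p6, chr2:102706188-102706487, plus strand, 250 bases before the start and 50 after it) are shown because *Slc1a2* had the most tags of the 10 genes and 5 motifs were searched there on both strands. They were TATAAA (the TATA box), TGANTCA (AP-1), TTCNNNGAA (STAT), AGAACA (1 arm of the glucocorticoid response element) and TGGGAA (RBPJ). No match to any of them was found in this window, which is therefore in lower case throughout. *Slc1a2* has 12 annotated transcript starts, and CPM per gene do not show from which start the tags of a gene came.
Slc1a2: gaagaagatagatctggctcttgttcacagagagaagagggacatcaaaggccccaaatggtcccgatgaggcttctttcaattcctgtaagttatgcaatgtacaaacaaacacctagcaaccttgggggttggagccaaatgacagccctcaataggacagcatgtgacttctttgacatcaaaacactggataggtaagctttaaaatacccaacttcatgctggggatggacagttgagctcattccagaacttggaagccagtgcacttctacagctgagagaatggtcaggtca

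The level of *Slc1a2* was 1547 and 1484 CPM before SE, 1217 and 1179 CPM at SE 6 h, 1350 and 1009 CPM at SE + LEV 6 h, 786.2 and 808.7 CPM at SE 2 days, and 801.1 and 975.9 CPM at SE + LEV 2 days. Every mouse that had SE was below both pre-SE mice, and all 4 mice at 2 days were below all 4 mice at 6 h. The mean was 1516 ± 44.2 CPM (SD, n = 2) before SE and 797.5 ± 15.9 CPM (SD, n = 2) at SE 2 days, 0.526 times as high, and both groups had little spread. The logFC was −0.93 ± 0.25 (s.e.; limma, adjusted p = 0.0614), just outside the threshold. The adjusted p was 0.0354 by edgeR's exact test and 0.00803 by DESeq2 on the recovered tags, the 2 of 12 alternatives that called it. The group means ran in the order pre-SE, SE 6 h (1198 CPM), SE + LEV 6 h (1180 CPM), SE + LEV 2 days (888.5 CPM) and SE 2 days (797.5 CPM), and no pair of neighbours in that order passed the test. *Gm13872*, annotated on the opposite strand, overlaps *Slc1a2*, and the sources used here do not state whether strand was used to sum tags to genes.

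*Slc1a3*, which encodes the glutamate transporter GLAST (ENSMUSG00000005360, mm9 chr15:8584124-8660764, minus strand), had 353.3 and 370.5 CPM before SE, 283.4 and 376.1 CPM at SE 6 h, 425.2 and 306.2 CPM at SE + LEV 6 h, 241.8 and 197.8 CPM at SE 2 days, and 315.5 and 356.7 CPM at SE + LEV 2 days. The SE 2 days mice were the lowest of the 10. Their logFC against pre-SE was −0.73 ± 0.25 (s.e.; limma, adjusted p = 0.132). The ratio of *Slc1a2* to *Slc1a3* within a library was 4.38 and 4.01 before SE, 3.25 and 4.09 at SE 2 days, and 2.54 and 2.74 at SE + LEV 2 days, the lowest pair of the 5 groups.

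*Glul* encodes glutamine synthetase, which turns the glutamate taken up into glutamine (ENSMUSG00000026473, mm9 chr1:155747074-155756853, plus strand). Its level was 141.2 and 82.4 CPM before SE, 83.5 and 99.3 CPM at SE 6 h, 87.2 and 58.8 CPM at SE + LEV 6 h, 59.8 and 70.1 CPM at SE 2 days, and 54.5 and 62.4 CPM at SE + LEV 2 days. All 4 mice at 2 days were below both pre-SE mice, which themselves differed by 1.71-fold. The logFC of SE 2 days against pre-SE was −0.74 ± 0.30 (s.e.; limma, adjusted p = 0.199). 3 annotated genes overlap *Glul*, namely *5830403L16Rik* and *Gm11074* on the opposite strand and *A930039A15Rik* on the same strand, so that its tags could be shared with theirs.

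*Gja1* and *Gjb6* encode connexin 43 and connexin 30, the connexins of astrocyte gap junctions. The window around the RefSeq start of *Gja1* (GRCm38.p6, chr10:56377050-56377349, plus strand) is shown because it was the only window of these genes with a match to TGANTCA, at position −19 and given in capitals. This motif was found in 7.8% of all 32851 promoter windows of the same length, TATAAA in 13.6%, TTCNNNGAA in 8.3%, AGAACA in 19.0% and TGGGAA in 25.6%. A match is a description of the letters and not a measured site.
Gja1: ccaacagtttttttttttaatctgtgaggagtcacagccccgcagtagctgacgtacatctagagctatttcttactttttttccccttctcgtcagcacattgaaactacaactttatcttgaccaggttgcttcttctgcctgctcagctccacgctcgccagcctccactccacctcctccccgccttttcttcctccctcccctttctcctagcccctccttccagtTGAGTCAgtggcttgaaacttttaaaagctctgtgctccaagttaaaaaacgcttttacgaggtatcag

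*Gja1* (ENSMUSG00000050953, mm9 chr10:56097106-56110225, plus strand) had 236.5 and 164.5 CPM before SE, 191.6 and 188.9 CPM at SE 6 h, 266.6 and 162.6 CPM at SE + LEV 6 h, 86.9 and 115.3 CPM at SE 2 days, and 96.2 and 251.1 CPM at SE + LEV 2 days. Both SE 2 days mice were below all 6 of the mice sampled before SE or at 6 h, and the SE + LEV 2 days mice lay apart, mouse 1 beside the SE 2 days mice and mouse 2 above both pre-SE mice. The logFC of SE 2 days against pre-SE was −0.98 ± 0.42 (s.e.; limma, adjusted p = 0.227). Of the 12 alternatives, edgeR's exact test called it (adjusted p = 0.0408). *Gjb6* (ENSMUSG00000040055, mm9 chr14:57742140-57752448, minus strand) had 51.1 and 32.5 CPM before SE and 33.9 and 35.1 CPM at SE 2 days, and it ranged from 32.5 to 61.2 CPM over all mice. Both SE 2 days mice lay between the pre-SE mice and below both SE 6 h mice (38.3 and 61.2 CPM), beside 20.1% of all genes. SE + LEV 6 h had 57.2 and 34.6 CPM, and SE + LEV 2 days had 34.1 and 50.5 CPM. The logFC of *Gjb6* at SE 2 days against pre-SE, −0.24 ± 0.35 (s.e.; limma, adjusted p = 0.771), changed sign without pre-SE mouse 1, to 0.09. The ratio of *Gja1* to *Gjb6* was 4.62 and 5.07 before SE, 4.999 and 3.09 at SE 6 h, 4.66 and 4.70 at SE + LEV 6 h, 2.56 and 3.28 at SE 2 days, and 2.82 and 4.97 at SE + LEV 2 days, so that SE 2 days overlapped SE 6 h.

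*Aldh1l1* encodes 10-formyltetrahydrofolate dehydrogenase, an enzyme of folate metabolism and a common marker of astrocytes (ENSMUSG00000030088, mm9 chr6:90436421-90550197, plus strand). Its window around the RefSeq start (GRCm38.p6, chr6:90550543-90550842, plus strand) is shown because it was, beside *Aqp4*, the gene with the widest range of group means. It holds 1 match to TGGGAA, at position −150 on the opposite strand and in capitals, and no match to the other 4 motifs.
Aldh1l1: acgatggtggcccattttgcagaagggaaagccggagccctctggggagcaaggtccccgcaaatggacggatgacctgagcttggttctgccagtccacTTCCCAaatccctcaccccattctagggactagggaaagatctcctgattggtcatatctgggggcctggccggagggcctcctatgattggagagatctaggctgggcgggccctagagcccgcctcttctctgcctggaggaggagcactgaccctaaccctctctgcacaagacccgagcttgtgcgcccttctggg

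The level of *Aldh1l1* was 17.8 and 13.5 CPM before SE, 16.7 and 29.5 CPM at SE 6 h, 25.6 and 23.5 CPM at SE + LEV 6 h, 26.4 and 47.7 CPM at SE 2 days, and 36.1 and 52.7 CPM at SE + LEV 2 days. All 4 mice at 2 days were above both pre-SE mice, and SE 2 days overlapped SE 6 h. The logFC against pre-SE was 1.19 ± 0.37 (s.e.; limma, adjusted p = 0.0988) at SE 2 days and 1.48 ± 0.37 (s.e.; limma, adjusted p = 0.0714) at SE + LEV 2 days. Both were called by edgeR's exact test (adjusted p = 0.0207 and 0.00370) and by DESeq2 (adjusted p = 0.0164 and 0.00569) and by no other of the 12 alternatives. *Gm15756* on the opposite strand overlaps *Aldh1l1*.

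*Aldoc* encodes aldolase C, the brain isoform of a glycolytic enzyme, which is found in astrocytes (ENSMUSG00000017390, mm9 chr11:78136470-78141283, plus strand). It had 773.7 and 385.6 CPM before SE, 576.5 and 683.7 CPM at SE 6 h, 716.0 and 534.7 CPM at SE + LEV 6 h, 283.0 and 206.3 CPM at SE 2 days, and 254.9 and 573.4 CPM at SE + LEV 2 days. Both SE 2 days mice were below all pre-SE and 6 h mice, and the pre-SE mice differed by 2.01-fold. The logFC was −1.18 ± 0.42 (s.e.; limma, adjusted p = 0.150) against pre-SE and −1.38 ± 0.42 (s.e.; limma, adjusted p = 0.105) against SE 6 h. DESeq2 called both (adjusted p = 0.0378 and 0.00954), as did edgeR's exact test (adjusted p = 0.0265 and 0.00193). Against SE 6 h limma also called *Aldoc* with only the groups compared (adjusted p = 0.0399) and without SE + LEV 2 days mouse 1 (adjusted p = 0.0498) or mouse 2 (adjusted p = 0.0480). The ratio of *Aldh1l1* to *Aldoc* within a library was 0.0230 and 0.0351 before SE, 0.0933 and 0.231 at SE 2 days and 0.141 and 0.0918 at SE + LEV 2 days, so that all 4 mice at 2 days lay above the other 6.

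*S100b* encodes a calcium-binding protein of astrocytes that oligodendrocytes also make (ENSMUSG00000033208, mm9 chr10:75716598-75723904, plus strand, overlapped by *Dip2a* on the opposite strand). It had 67.3 and 56.1 CPM before SE, 60.4 and 70.3 CPM at SE 6 h, 72.6 and 61.7 CPM at SE + LEV 6 h, 41.7 and 67.0 CPM at SE 2 days, and 55.2 and 82.4 CPM at SE + LEV 2 days. The groups overlapped throughout, and the range of its 5 group means, 0.35 on the log2 scale, was the narrowest of the 10 genes. Its logFC at SE 2 days, −0.22 ± 0.29 (s.e.; limma, adjusted p = 0.745), changed sign without SE 2 days mouse 1, to 0.13.

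At 6 h after SE, 0 of the 10 genes were called by limma, edgeR or DESeq2, and 0 had an unadjusted limma p under 0.05, while 2.96% of all genes tested were called. At an unadjusted limma p under 0.05, 1460 of all 15851 genes were higher and 1349 lower. The logFC against pre-SE ran from −0.34 (*Slc1a2*) to 0.52 (*Aldh1l1*), with 5 genes higher, 5 lower and a median of 0.02, and for 6 of the 10 the sign changed under at least 1 alternative. The median of all genes was −0.13 and went to −0.0047 when libraries were rescaled by the median of ratios, so that differences of this size depend on the scaling. Both SE 6 h mice lay below both pre-SE mice for 2 of the 10 genes, *Kcnj10* and *Slc1a2*, and above for 0, beside 31.3% of all genes below and 18.6% above.

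At 2 days after SE, 1 of the 10 genes was called higher against pre-SE and 0 lower, and 5.66% of all genes tested were called. At an unadjusted limma p under 0.05 there were 7 of the 10, with *Aqp4* and *Aldh1l1* higher and *Slc1a2*, *Slc1a3*, *Glul*, *Gja1* and *Aldoc* lower. Of all 15851 genes, 1977 were higher and 1155 lower at the same unadjusted p. Both SE 2 days mice lay above both pre-SE mice for 3 of the 10 genes, beside 26.3% of all genes, and below them for 5 of 10, beside 25.6% of all genes. The median logFC of the 10 genes was −0.48 and that of all genes −0.03. By edgeR's exact test 5 of the 10 were called, beside 10.9% of all genes, by DESeq2 4 of 10, beside 10.1%, and by edgeR's quasi-likelihood test 1, beside 5.46%.

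**Figure D2:**
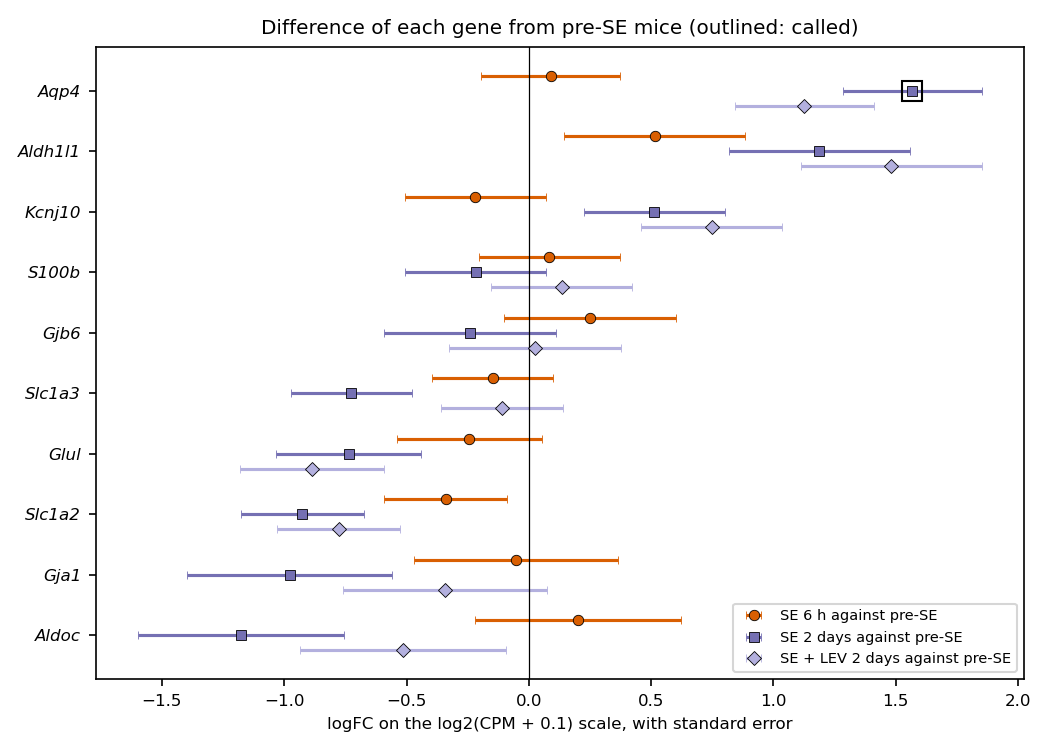
Difference from the pre-SE mice (horizontal axis, logFC on the log2(CPM + 0.1) scale) of each gene at SE 6 h (circles), SE 2 days (squares) and SE + LEV 2 days (diamonds), with bars for the standard error of the limma fit and an outline for the called value. The 6 h values lie between −0.34 and 0.52, and the SE 2 days values spread from −1.18 (*Aldoc*) to 1.57 (*Aqp4*), the 1 outlined value.

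Between 6 h and 2 days without LEV, *Aqp4* was the 1 gene called, and 4.25% of all genes were called. By edgeR's exact test 3 of the 10 were called, beside 9.07% of all genes, by DESeq2 2, beside 8.16%, and by edgeR's quasi-likelihood test 1, beside 3% of all genes. Both SE 2 days mice were below both SE 6 h mice for 6 of the 10 genes (*Slc1a2*, *Slc1a3*, *Glul*, *Gja1*, *Gjb6* and *Aldoc*), beside 20.1% of all genes, and above them for *Aqp4* and *Kcnj10*, beside 31.0% of all genes. With LEV, SE + LEV 2 days against SE + LEV 6 h gave 0 called of 10 by limma, edgeR and DESeq2, with 3 at an unadjusted limma p under 0.05, and 2.14% of all genes were called. At the same unadjusted p, 1461 of all 15851 genes were higher and 428 lower. Among the 10 genes the largest logFC in this comparison were those of *Aqp4*, 1.14 ± 0.29 (s.e.; limma, adjusted p = 0.0896), and *Kcnj10*, 0.97 ± 0.29 (s.e.; limma, adjusted p = 0.162).

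The within-library ratio of *Aqp4* to *Slc1a2*, which does not depend on the scaling of libraries, was 0.0242 and 0.0227 before SE, 0.0314 and 0.0317 at SE 6 h, and 0.0327 and 0.0278 at SE + LEV 6 h. It was 0.113 and 0.154 at SE 2 days and 0.114 and 0.0674 at SE + LEV 2 days. The 4 mice at 2 days were all above the other 6, and SE + LEV 2 days mouse 2 was the lowest of the 4. This separation follows from the 2 genes, since these 4 mice were above the other 6 for *Aqp4* and below them for *Slc1a2*. It is not a further result.

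The SE + LEV groups address whether LEV given after SE alters these genes. At 6 h SE + LEV differed from SE by a logFC of −0.35 (*Glul*) to 0.14 (*Slc1a3*), the groups overlapped for all 10 genes, and 0 of 10 were called by limma, edgeR or DESeq2 (0 at an unadjusted limma p under 0.05). Of all genes 0.0126% were called, 16.1% had both LEV mice above both SE mice and 13.4% had both below. At an unadjusted limma p under 0.05, 184 of all 15851 genes were higher with LEV and 542 lower. All 10 genes were lower in mouse 2 than in mouse 1 of SE + LEV 6 h, and mouse 2 was the library with the fewest tags. Before SE, 9 of the 10 genes were also lower in mouse 2, which was the library with the most tags (51710968). The share of all genes lower in mouse 2 was not counted for either group. The part of depth in these differences was not tested.

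At 2 days the logFC of SE + LEV against SE was positive for 8 of the 10 genes and negative for *Aqp4* (−0.44 ± 0.29, s.e.) and *Glul* (−0.15 ± 0.30, s.e.). *Slc1a3* was the 1 gene for which both LEV mice were above both SE mice, beside 15.2% of all genes, and there was 0 of 10 for both below, beside 12.2%. Its logFC was 0.62 ± 0.25 (s.e.; limma, adjusted p = 1.0), and 0.47 to 0.76 without any 1 of the 4 mice. It was the 1 gene of the 10 at an unadjusted limma p under 0.05, where 208 of all 15851 genes were higher and 220 lower. None of the 10 genes was called by limma, edgeR or DESeq2, and limma called 0.0% of all genes, so that an effect of LEV was not detectable with these mice for any of the 10. *Aldoc* had a logFC of 0.66 ± 0.42 (s.e.) and *Gja1* of 0.63 ± 0.42 (s.e.), and both rested on SE + LEV 2 days mouse 2. Without that mouse the logFC was 0.08 for *Aldoc* and −0.06 for *Gja1*. The difference between the LEV effects at 2 days and at 6 h ran from −0.34 (*Aqp4*) to 0.68 (*Aldoc*), with 0 of 10 called by limma, edgeR's quasi-likelihood test or DESeq2, 0 at an unadjusted limma p under 0.05 and 0.0% of all genes called by limma. For this difference 251 of all 15851 genes were higher and 126 lower at that unadjusted p.

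**Figure D3:**
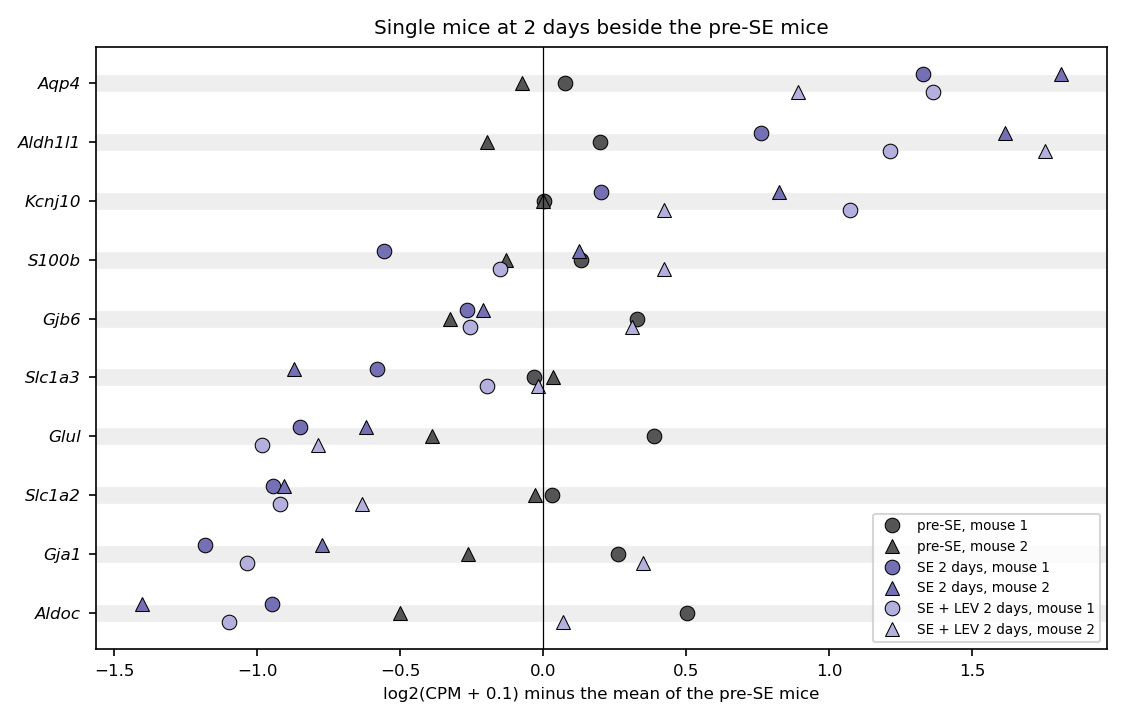
Each mouse of the groups pre-SE, SE 2 days and SE + LEV 2 days (circle mouse 1, triangle mouse 2), as log2(CPM + 0.1) minus the mean of the pre-SE mice (horizontal axis), for the 10 genes (vertical axis). SE + LEV 2 days mouse 1 lies nearer to the SE 2 days mean than to the pre-SE mean for 9 of the 10 genes and mouse 2 for 5 of 10.

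The SE + LEV 2 days mice differed from each other by 0.56 on the log2 scale in the median of the 10 genes, the widest of the 5 groups. Mouse 1 lay nearer to the mean of the SE 2 days mice than to that of the pre-SE mice for 9 of 10 genes, *Slc1a3* being the exception. Mouse 2 lay nearer to the pre-SE mean for *Slc1a3*, *Gja1*, *Gjb6*, *Aldoc* and *S100b* and nearer to the SE 2 days mean for the other 5. *Gja1* differed between both mice by 2.61-fold and *Aldoc* by 2.25-fold.

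Against pre-SE, SE + LEV 2 days had 0 of 10 genes called by limma, beside 2.85% of all genes, and 0 by edgeR's quasi-likelihood test, beside 2.93%. By edgeR's exact test 2 were called, beside 4.59% of all genes, and by DESeq2 3, beside 5.17%, and 5 had an unadjusted limma p under 0.05. At that unadjusted p, 1404 of all 15851 genes were higher and 303 lower. *Aqp4* had a logFC of 1.13 ± 0.29 (s.e.; limma, adjusted p = 0.0770), *Slc1a2* of −0.78 ± 0.25 (s.e.; limma, adjusted p = 0.202) and *Glul* of −0.89 ± 0.30 (s.e.; limma, adjusted p = 0.223). Both LEV mice were above both pre-SE mice for *Aqp4*, *Kcnj10* and *Aldh1l1*, 3 of 10 beside 22.6% of all genes, and below for *Slc1a2* and *Glul*, 2 of 10 beside 17.5%. SE + LEV 6 h against pre-SE had 0 of 10 called by limma, edgeR or DESeq2, 0 at an unadjusted limma p under 0.05 and logFC from −0.59 (*Glul*) to 0.66 (*Aldh1l1*), and 0.322% of all genes were called. There, 876 of all 15851 genes were higher and 611 lower at that unadjusted p.

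Further genes of astrocytes were taken from lists by function. At SE 2 days against pre-SE, 0 of 9 further genes of ion and water homeostasis were called by limma, edgeR or DESeq2, 0 had an unadjusted limma p under 0.05, and they had a median logFC of −0.18. Of 10 further genes of transmitter and amino acid transport and metabolism, 1 was called lower, *Prodh*, which encodes proline dehydrogenase, with 14.8 and 13.2 CPM before SE and 5.43 and 4.25 CPM at SE 2 days (logFC −1.52, limma, adjusted p = 0.0350). Of 9 genes of energy and lipid metabolism 0 were called by limma or edgeR's quasi-likelihood test, 1 by edgeR's exact test and 2 by DESeq2, 5 had an unadjusted limma p under 0.05, and the median logFC was −0.48. Of 6 receptors of astrocytes 1 was called lower, *Ntsr2*, a neurotensin receptor (logFC −2.17, limma, adjusted p = 0.0181). Of 7 genes of astrocyte identity 2 were called lower, *Mfge8*, which encodes a secreted protein that bridges phagocytes to dying cells (logFC −1.43, limma, adjusted p = 0.0164), and *Cldn10*, a claudin (logFC −1.56, limma, adjusted p = 0.0483), with a list median of −0.83. The call of *Ntsr2* and that of *Mfge8* held in 18 of 22 alternatives, that of *Prodh* in 16 and that of *Cldn10* in 8. Over the 41 genes of these lists limma called 4, beside 5.66% of all genes, edgeR's exact test 8, beside 10.9%, and DESeq2 8, beside 10.1%. At an unadjusted limma p under 0.05 there were 17 of the 41. Of all 15851 genes, 1977 were higher and 1155 lower at that unadjusted p.

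Beside these, 11 of 12 pan-reactive astrocyte genes, which astrocytes raise after many kinds of injury, were called higher at SE 2 days against pre-SE, beside 5.66% of all genes called. Their median logFC was 5.07. *Timp1*, an inhibitor of matrix proteases, had the largest logFC among them, 8.72 (limma, adjusted p = 0.000924), with 0.17 and 0.19 CPM before SE and 59.6 and 232.0 CPM at SE 2 days. At SE + LEV 2 days against pre-SE 9 of the 12 were called higher, beside 2.85% of all genes, and at SE 6 h 5 of the 12, beside 2.96%. All 12 were lower in mouse 2 than in mouse 1 of SE + LEV 2 days, for instance *Timp1* with 181.4 and 25.01 CPM, whereas 3 of the 12 were lower in mouse 2 of SE 2 days. The 10 homeostatic genes had 1 call of 10 where the pan-reactive genes had 11 of 12, and the difference between the lists was not tested. Both lists were chosen with earlier results of these data known.

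**Figure D4:**
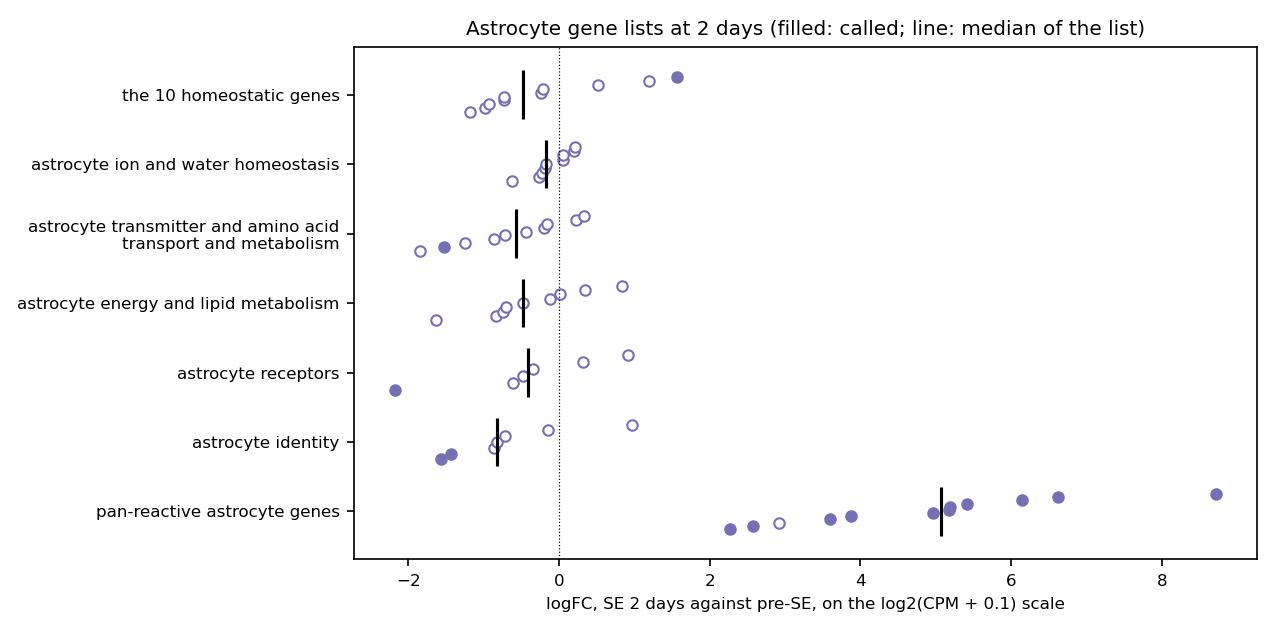
The logFC of SE 2 days against pre-SE (horizontal axis, log2(CPM + 0.1) scale) of each gene in 7 lists of astrocyte genes, with called genes filled and a line at the median of each list. The 10 homeostatic genes have a median of −0.48 and the further homeostatic lists medians of −0.83 to −0.18, whereas the pan-reactive genes lie between 2.27 and 8.72.

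At SE 6 h against pre-SE *Slc7a11*, the cystine and glutamate exchanger, was the 1 of 41 genes called, with 13.3 and 24.1 CPM before SE and 62.3 and 86.6 CPM at SE 6 h (logFC 2.03, limma, adjusted p = 0.0367, called in 14 of 22 alternatives), beside 2.96% of all genes. From SE 6 h to SE 2 days 3 of the 41 were called, beside 4.25% of all genes. *Dio2*, whose enzyme activates thyroid hormone, had a logFC of −3.34 (limma, adjusted p = 0.00447) and was called in 22 of 22 alternatives. *Ntsr2* had −1.87 (limma, adjusted p = 0.0438), called in 10 of 22, and *Pla2g7*, a lipoprotein-associated phospholipase, −1.09 (limma, adjusted p = 0.0371), called in 11 of 22. By edgeR's quasi-likelihood test 2 of the 41 were called from SE 6 h to SE 2 days, beside 3% of all genes. Its exact test called 10, beside 9.07%, and DESeq2 9, beside 8.16%. From SE + LEV 6 h to SE + LEV 2 days *Dio2* was the 1 of 41 called, with a logFC of −2.26 (limma, adjusted p = 0.0315, called in 14 of 22 alternatives), beside 2.14% of all genes. Of the 41 genes, SE + LEV against SE had 0 calls by limma, edgeR or DESeq2 at 6 h and at 2 days, with 1 and 5 at an unadjusted limma p under 0.05. At that unadjusted p, 184 of all 15851 genes were higher and 542 lower at 6 h, and 208 higher and 220 lower at 2 days.

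Markers of the other cell types of the hippocampus were present in every group, and no marker found was at 3 tags or fewer in all libraries. Of 6 choroid plexus markers looked for, 4 were found, and *Folr1* and *Otx2* were not among the genes listed. The summed level of the 10 astrocyte genes was 3304 and 2701 CPM before SE, 1739 and 1812 CPM at SE 2 days, and 1904 and 2576 CPM at SE + LEV 2 days. Most of this sum was *Slc1a2* and *Aldoc*, and *Aqp4*, *Kcnj10* and *Aldh1l1* had higher levels in both SE 2 days mice than before SE. In the same order, 6 oligodendrocyte markers summed to 4710 and 5179 CPM, to 1710 and 2617 CPM, and to 3127 and 4301 CPM, and 6 neuronal markers to 6750 and 5408 CPM, to 4303 and 3845 CPM, and to 3565 and 4083 CPM. The 6 microglial markers summed to 165.4 and 154.2 CPM before SE, to 309.2 and 298.1 CPM at SE 2 days and to 372.6 and 356.9 CPM at SE + LEV 2 days. At SE 2 days against pre-SE, limma called 0 of 6 oligodendrocyte markers (2 by DESeq2 and 2 by edgeR's exact test, 4 at an unadjusted limma p under 0.05), 0 of 6 neuronal markers (0 by the other tools, 1 at an unadjusted limma p under 0.05) and 1 of 6 microglial markers, higher (4 by DESeq2 and 4 by edgeR's exact test, 5 at an unadjusted limma p under 0.05). Over all genes in this comparison limma called 5.66%, DESeq2 10.1% and edgeR's exact test 10.9%. At an unadjusted limma p under 0.05, 1977 of all 15851 genes were higher and 1155 lower. The part of these cell types in the values of the astrocyte genes was not tested. Summed choroid plexus markers differed widely between mice of a group, with 8.72 CPM in mouse 1 and 4025 CPM in mouse 2 at SE 6 h. Before SE they had 12.56 and 1710 CPM, and at SE + LEV 2 days 1507 and 26.99 CPM. The sums were 868.7 and 41.26 CPM at SE + LEV 6 h and 67.85 and 23.02 CPM at SE 2 days. Between the SE 6 h mice the 10 astrocyte genes differed by 1.014-fold (*Gja1*) to 1.76-fold (*Aldh1l1*), with 6 higher in mouse 2. Among these were *Gjb6* by 1.60-fold and *Slc1a3* by 1.33-fold. Between the pre-SE mice the 10 genes differed by 1.001-fold (*Kcnj10*) to 2.01-fold (*Aldoc*), with 1 higher in mouse 2. Between the SE + LEV 2 days mice they differed by 1.13-fold (*Slc1a3*) to 2.61-fold (*Gja1*), with 8 higher in mouse 2. The part of the choroid plexus in these values was not tested.

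For the 3 genes with the widest range of group means, the genes with the nearest pattern over the 10 libraries were found among 14210 genes, as the root mean square difference of log2 values each centred on its own mean. For *Aqp4* (range 1.58) they were *Lgmn* (0.19), *Cd9* (0.19) and *Dhrs1* (0.20). For *Aldh1l1* (range 1.48) they were *Cyb5r3* (0.28), *Axl* (0.30) and *Vwa1* (0.30). For *Aldoc* (range 1.38) they were *Acot11* (0.10), *Hs3st4* (0.16) and *Nwd1* (0.20).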

How the data were processed

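CAGE libraries of whole hippocampi from 10 mice, 2 in each of 5 groups, were used. The authors mapped single-end tags of 75 bases to mm9 with BWA 0.7.17 and the rest with HISAT2 2.0.5, clustered them with RECLU, used bedtools 2.12.0 for overlap between replicates and edgeR 3.22.5 for their own tests. They discarded clusters under 0.1 CPM and deposited CPM per gene and mouse. The step from clusters to genes is not given in the sources used here. All per-mouse columns were used (0 left out).

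The 10 genes and all lists were chosen with earlier results of these data known. All 9 comparisons came from 1 fit of the 10 libraries by limma 3.58.1 (R 4.3.3), made on log2(CPM + 0.1) for the 15851 genes that reached 0.1 CPM in 2 or more libraries. The fit had a mean for each of the 5 groups and a trend of variance with level, its moderated tests were two-sided, and p was adjusted over all of these genes (Benjamini-Hochberg). The threshold for a call was an adjusted p of 0.05. This fit was run on simulated data in which the spread between mice was set alike for every gene. Such a run checks the code and does not measure how reliable calls with 2 mice a group are. Tag counts were recovered from the deposited CPM as whole multiples of 1 tag, which held for 100% of values within the 0.005 CPM of rounding, and 3 tags were worth 0.058 to 0.285 CPM. Since 1 tag is worth 0.019 to 0.095 CPM, that tolerance is wide beside it in the deeper libraries, whose tags rest on a total found by search.

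All 10 genes are named, with up to 4 called genes of each further list with the largest logFC and the 3 genes of nearest pattern for the 3 genes of widest range. Alternatives were pseudocounts of 0.01, 0.5 and 1, no filter, a filter of 1 CPM, median-of-ratios rescaling, the replicate number as a block, no variance trend, a fit of the compared groups alone, edgeR 4.0.16 (exact and quasi-likelihood tests) and DESeq2 1.42.0 on recovered tags, and each mouse left out. The count tests on recovered tags called 866 (edgeR quasi-likelihood), 1729 (edgeR exact) and 1607 (DESeq2) of all genes at SE 2 days against pre-SE, where limma called 897. Promoter windows, found for 9 of the 10 genes, are RefSeq's of GRCm38.p6, and gene positions are those of the mm9 annotation.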

Additional observations from a re-analysis of the deposited data

How the results depend on the processing

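Refits of 52 single-gene differences under the alternatives gave 1162 values. The 52 were all 10 genes in 4 comparisons and 12 others from the other comparisons. The 4 were SE 2 days with pre-SE and SE 6 h, and SE + LEV 2 days with SE 2 days and pre-SE. Of the 1162 values, 1119 kept their direction and side of the threshold, 7 lost a call, 18 gained one and 18 changed sign. Sign changes fell on 12 differences, 11 of them only when a mouse was left out. Over all 90 differences of the 10 genes in 9 comparisons, 42 changed sign in some alternative, 36 of them only when a mouse was left out, including 9 of 10 at SE + LEV 6 h against SE 6 h. At SE 2 days against pre-SE, 5 of the 10 genes were called by edgeR's exact test and 4 by DESeq2, and 0 to 1 without a replicate. At SE 2 days against SE 6 h, 2 were called with only the groups compared, 3 by edgeR's exact test and 2 by DESeq2, and 0 to 2 without a replicate. At SE + LEV 2 days against pre-SE, 2 were called by edgeR's exact test and 3 by DESeq2. The cause of these differences between tools was not tested.

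Without a replicate, the logFC at SE 2 days against pre-SE ran from −0.57 to 0.088 for *Gjb6* and from −0.56 to 0.13 for *S100b*. For *S100b* at SE 2 days against SE 6 h it ran from −0.64 to 0.041, and for *Slc1a3* at SE + LEV 6 h against SE 6 h from −0.092 to 0.38. At SE + LEV 2 days against SE 2 days it ran from −0.09 to 0.56 for *Kcnj10*, from −0.057 to 1.33 for *Gja1*, from −0.017 to 0.55 for *Gjb6* and from −0.13 to 0.72 for *Aldh1l1*. At SE + LEV 2 days against pre-SE it ran from −1.03 to 0.35 for *Gja1*, from −0.30 to 0.35 for *Gjb6*, from −1.10 to 0.07 for *Aldoc* and from −0.15 to 0.42 for *S100b*. *Gjb6* in that comparison also had −0.002 by edgeR's quasi-likelihood test, −0.022 by its exact test and −0.015 by DESeq2.

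The replicate number as a block changed no call of the 10 genes in any comparison, with 1 gene called at SE 2 days against pre-SE (*Aqp4*, limma adjusted p = 0.0167) and 1 against SE 6 h (*Aqp4*, limma adjusted p = 0.0284), and 0 in the others. Same-numbered mice are different animals, and the correlation of their deviations across genes ran from −0.44 to 0.34 over 8 comparisons, so the numbers were not taken to pair the mice. With the numbers of SE + LEV 2 days crossed, an alternative chosen after seeing the data, 0 of the 10 genes were called against SE 2 days and 0 against pre-SE. Depth sets little limit here, since 3 tags were worth at most 0.285 CPM and each of the 10 genes had at least 248 tags in every library.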
